A study of Oryctolagus cuniculus with 4 samples.

Results

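Ribosome biogenesis and RNA exosome genes were examined in rabbit ear hypertrophic scar (HS) tissue with and without drug-loaded microneedles (MNs). The genes were taken by symbol from a table of 13913 genes, by name families (EXOSC, UTP, NOP, NOL, NOC, RRP, POLR1, IMP, TSR) and by single symbols of known factors of the pathway. The selection gave 39 genes, and 38 of them passed the filter on low values and were tested. The rule reads gene names only.

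Ribosome biogenesis starts in the nucleolus, where RNA polymerase I transcribes a long precursor ribosomal RNA (rRNA). Small nucleolar ribonucleoproteins (snoRNPs) modify its nucleotides, and the small subunit processome folds and cuts it. Separate sets of factors assemble the small and the large ribosomal subunit. The RNA exosome, a ring of subunits with a cap and attached nucleases, trims rRNA ends and degrades spacer fragments and faulty RNA. In skin, this pathway is known to be active in growing cells such as basal keratinocytes, and 5-fluorouracil, the parent compound of the drug in the microneedles, is known to enter RNA and to disturb rRNA processing.

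Droplet single-cell libraries were made from the ventral epidermis and dermis of scars on the ears of female rabbits, with 1 tissue per library and 2 libraries per group. The HS libraries came from wild-type (WT) rabbits whose scars had no treatment, and the drug-loaded MNs libraries from WT rabbits whose scars received patches weekly for 3 weeks. The needles carried a peptide prodrug of a 5-fluorouracil derivative, and no library with drug-free needles was analysed here, so drug and needle cannot be told apart. The study calls the samples of a group biologically independent but does not say whether they came from separate rabbits. The p-values therefore measure the spread between these libraries. By the study's methods, tissue was taken 1 week after the last patch. The labels give no age, and the study states one only for the rabbits as purchased.

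Values are given in units, 1 unit being 1 part in 1000000 of the library total over all cells. The files hold no value per cell, so fewer cells of a type and less RNA per cell cannot be told apart. Depth per library was unknown. Between 11844 and 12059 genes were above 0 in a library, and the 39 genes were above 0 in all 4. Markers of the labelled tissue were present: 5 fibroblast markers summed to 22929 and 22452 units in HS and to 44488 and 48451 units after drug-loaded MNs, and 5 basal keratinocyte markers to 8265, 5718, 7678 and 4040 units in the same order. All 5 fibroblast markers and all 7 macrophage markers were higher in both drug-loaded MNs libraries than in both HS libraries, and mitochondrially encoded genes held 2.75% and 2.80% of the HS libraries and 4.37% and 4.58% of the treated ones. Their part in the values below was not tested.

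To examine whether drug-loaded MNs changed the expression of the ribosome assembly pathway, the groups were compared gene by gene. No gene of the set rose or fell past the threshold in limma, where an adjusted p (Benjamini-Hochberg over 9348 genes) under 0.05 was a call. The same test called 0.0428% of all genes, which is 4 genes. At an unadjusted p under 0.05 there were also 0 of the 38, against 7.26% of all genes higher and 1.39% lower in drug-loaded MNs. The log2 fold changes of drug-loaded MNs over HS ran from -0.45 to 0.33, with 15 genes above 0 and 23 below. Their median was -0.04, beside 0.12 for all tested genes, and 31 of the 38 lay below that all-gene median. The median absolute log2 fold change was 0.11 in the set and 0.23 over all genes. Median ratio scaling and quantile normalization, 2 other ways to make libraries comparable, brought the all-gene median to -0.01 and -0.02, and with either of them 6 genes were higher and 32 lower. Without HS replicate 2 the split was 19 and 19, with medians of 0.003 in the set and 0.19 over all genes. Without drug-loaded MNs replicate 2 it was again 19 and 19, with medians of 0.001 in the set and 0.18 over all genes.

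A missed threshold does not show that levels were alike, so the width of each difference matters. The 95% interval of the log2 fold change lay within 1 log2 unit on either side of 0 for 35 of the 38 genes (92.1%), and this held for 60.4% of all tested genes. The exceptions were NPM1, UTP23 and RRP8. Summed over the 39 genes, expression was 1549 and 1716 units in the HS libraries and 1622 and 1490 units in the drug-loaded MNs libraries, between 0.149% and 0.172% of the total. The summed values of the groups overlapped.

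**Figure D1:**
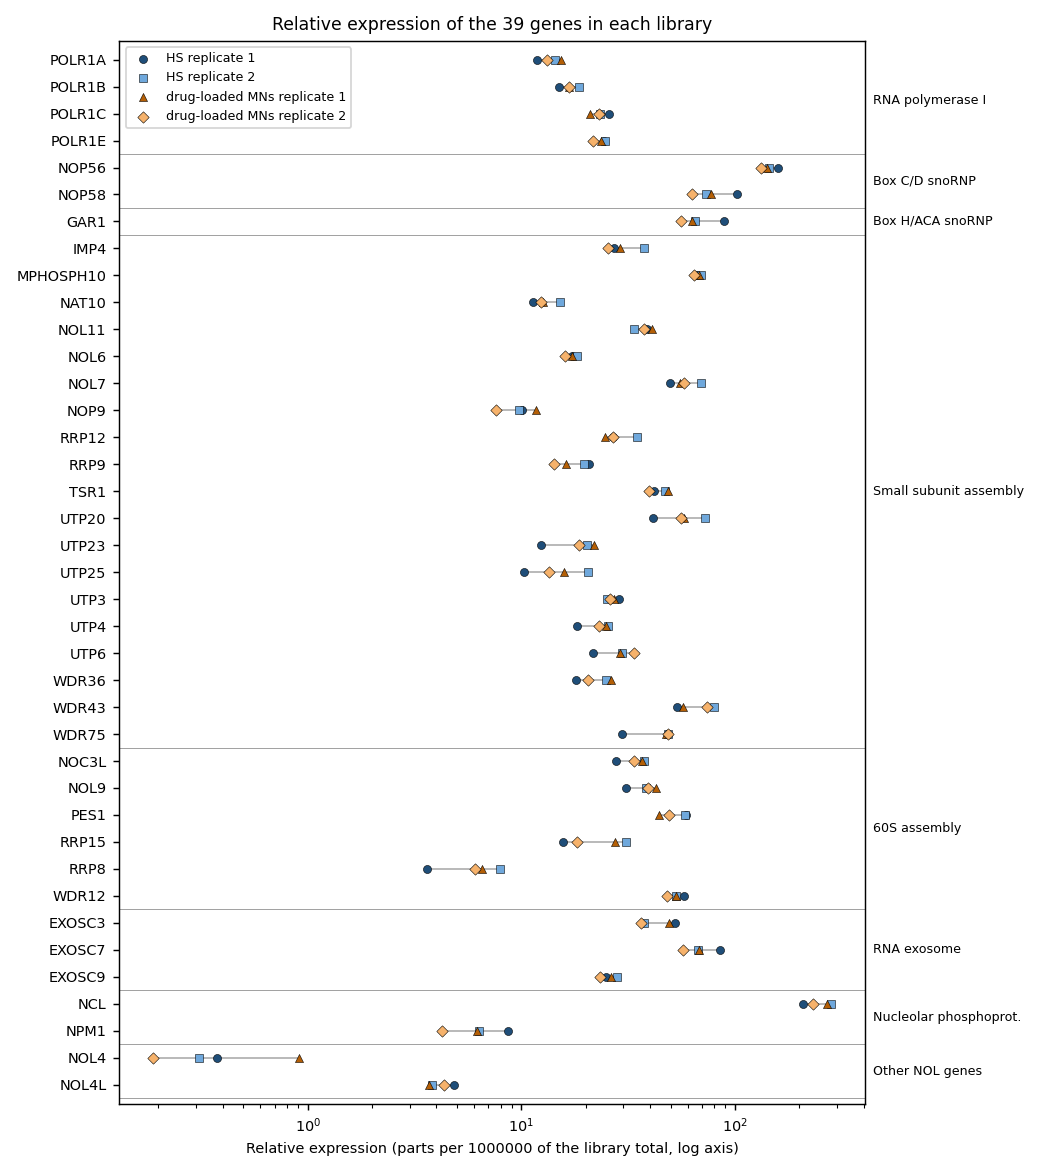
Relative expression of the 39 genes in each library, in parts per 1000000 of the library total on a log axis, ordered by role; each marker is 1 library and the grey line spans the 4 values. The 4 values of most genes lie close together, and HS replicate 1 is the lowest library for many small subunit assembly genes, such as WDR75 at 29.7 units.

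Transcription of the rRNA precursor was represented by 4 subunits of RNA polymerase I. POLR1C, a subunit shared with RNA polymerase III, had 25.8 and 23.4 units in the HS libraries and 20.9 and 23.0 units in the drug-loaded MNs libraries. Both treated libraries were lower than both untreated ones, by a narrow margin, with a log2 fold change of -0.16 ± 0.24 (SE) and a limma adjusted p of 0.911. POLR1B, which forms the catalytic centre together with POLR1A, had 14.9 and 18.7 units in HS and 16.8 and 16.7 units in drug-loaded MNs. Its treated libraries lay between the HS libraries, and its log2 fold change was 0.002. The log2 fold changes of POLR1A and POLR1E were 0.11 and -0.11, and their adjusted p-values were 0.944 and 0.938.

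The 3 snoRNP proteins had log2 fold changes below 0, without a call. GAR1, a core protein of the box H/ACA particles that guide pseudouridine formation, had 88.6 and 65.3 units in HS and 62.6 and 55.7 units in drug-loaded MNs. Its groups did not overlap, but the HS libraries were farther apart than the group means. The log2 fold change was -0.36 ± 0.24 (SE), with a 95% interval from -0.93 to 0.21 and a limma adjusted p of 0.772. NOP56 and NOP58 are core proteins of the box C/D particles, which guide ribose methylation. NOP56 had 159.6 and 144 units in HS and 141 and 132 units in drug-loaded MNs, again without overlap, with a log2 fold change of -0.15 (adjusted p from limma 0.898.) NOP58 had 102 and 73.1 units in HS and 76.9 and 62.7 units in drug-loaded MNs, and here the groups overlapped, with a log2 fold change of -0.31 (adjusted p from limma 0.821.) All 3 genes were highest in HS replicate 1 and lowest in drug-loaded MNs replicate 2. Without HS replicate 1 the log2 fold changes were -0.14 for GAR1, -0.08 for NOP56 and -0.07 for NOP58. FBL and DKC1, the enzymes of these particles, were not analysed here.

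Small subunit assembly was the largest group, with 19 genes. Of these, 8 had a log2 fold change above 0 and 11 below, with a median of -0.02. RRP9 binds the U3 snoRNA and had the smallest p of all members. Its values were 20.6 and 19.6 units in HS and 16.2 and 14.3 units in drug-loaded MNs, so the HS libraries were close together and both treated libraries were lower. The log2 fold change was -0.38 ± 0.25 (SE), with a 95% interval from -0.96 to 0.20, a limma p of 0.170 and an adjusted p of 0.763. NOL6 and RRP12, a factor of late small subunit maturation and export, were also lower in both treated libraries, with log2 fold changes of -0.09 and -0.25.

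Other small subunit genes had their highest fold changes through 1 HS library. WDR75 belongs to the processome module that joins early, during transcription. It had 29.7 and 48.8 units in HS and 47.3 and 48.7 units in drug-loaded MNs. HS replicate 1 stood apart, and the other libraries lay within a narrow range. The log2 fold change of WDR75 was 0.32 ± 0.29 (SE) with a limma adjusted p of 0.836, and -0.02 without HS replicate 1. UTP23 had 12.3 and 20.2 units in HS and 21.9 and 18.5 units in drug-loaded MNs. Its log2 fold change was 0.33 ± 0.31 (SE), with a 95% interval from -0.38 to 1.05 and a limma adjusted p of 0.840, and it was -0.0054 without HS replicate 1. UTP6 had 21.6 and 29.7 units in HS and 28.9 and 33.6 units in drug-loaded MNs, with a log2 fold change of 0.29 (adjusted p from limma 0.838.) In these 3 genes HS replicate 1 was the lowest library.

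HS replicate 1 was also the lowest library in several genes with small differences in the mean. UTP20, a large scaffold protein of the processome, had 41.4 and 72.4 units in HS and 58.0 and 55.8 units in drug-loaded MNs. UTP25 had 10.3 and 20.6 units in HS and 15.9 and 13.5 units in drug-loaded MNs, with a log2 fold change of 0.002. Both treated libraries lay between the HS libraries in both genes. NAT10, the enzyme that acetylates cytidines in small subunit rRNA, did likewise, with a log2 fold change of -0.07. The remaining small subunit genes, among them IMP4, MPHOSPH10, NOL11, TSR1, UTP3, UTP4, WDR36 and WDR43, had log2 fold changes from -0.22 to 0.14.

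Among 6 large subunit assembly genes, 4 had a log2 fold change above 0 and 2 below, and the median was 0.06. PES1 and WDR12 form, with BOP1, the PeBoW complex that is needed for large subunit rRNA processing. PES1 had 58.9 and 58.5 units in HS and 44.2 and 49.0 units in drug-loaded MNs. The HS libraries were nearly equal and both treated libraries were lower. The log2 fold change was -0.33 ± 0.22 (SE), with a 95% interval from -0.84 to 0.19 and a limma adjusted p of 0.767. WDR12 had 57.9 and 53.1 units in HS and 52.9 and 48.2 units in drug-loaded MNs, with a log2 fold change of -0.13 (adjusted p from limma 0.914.) BOP1 was not analysed here.

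NOL9, a kinase that phosphorylates RNA ends after a cut in the spacer of the precursor, went the other way. It had 30.7 and 38.4 units in HS and 42.5 and 39.3 units in drug-loaded MNs. It was the only member whose treated libraries were both above the HS libraries, with a log2 fold change of 0.24 ± 0.24 (SE) and a limma adjusted p of 0.854. RRP15 had 15.7 and 30.9 units in HS and 27.4 and 18.1 units in drug-loaded MNs, and its log2 fold change was 0.01. RRP8, a methyltransferase of large subunit rRNA, had 3.62 and 7.91 units in HS and 6.55 and 6.07 units in drug-loaded MNs. In both genes the HS libraries differed more from each other than the groups did. The median of the large subunit group was -0.19 without HS replicate 1 and 0.36 without HS replicate 2, and its sign also turned with the scaling, to -0.07 for median ratios and -0.10 for quantiles.

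**Figure D2:**
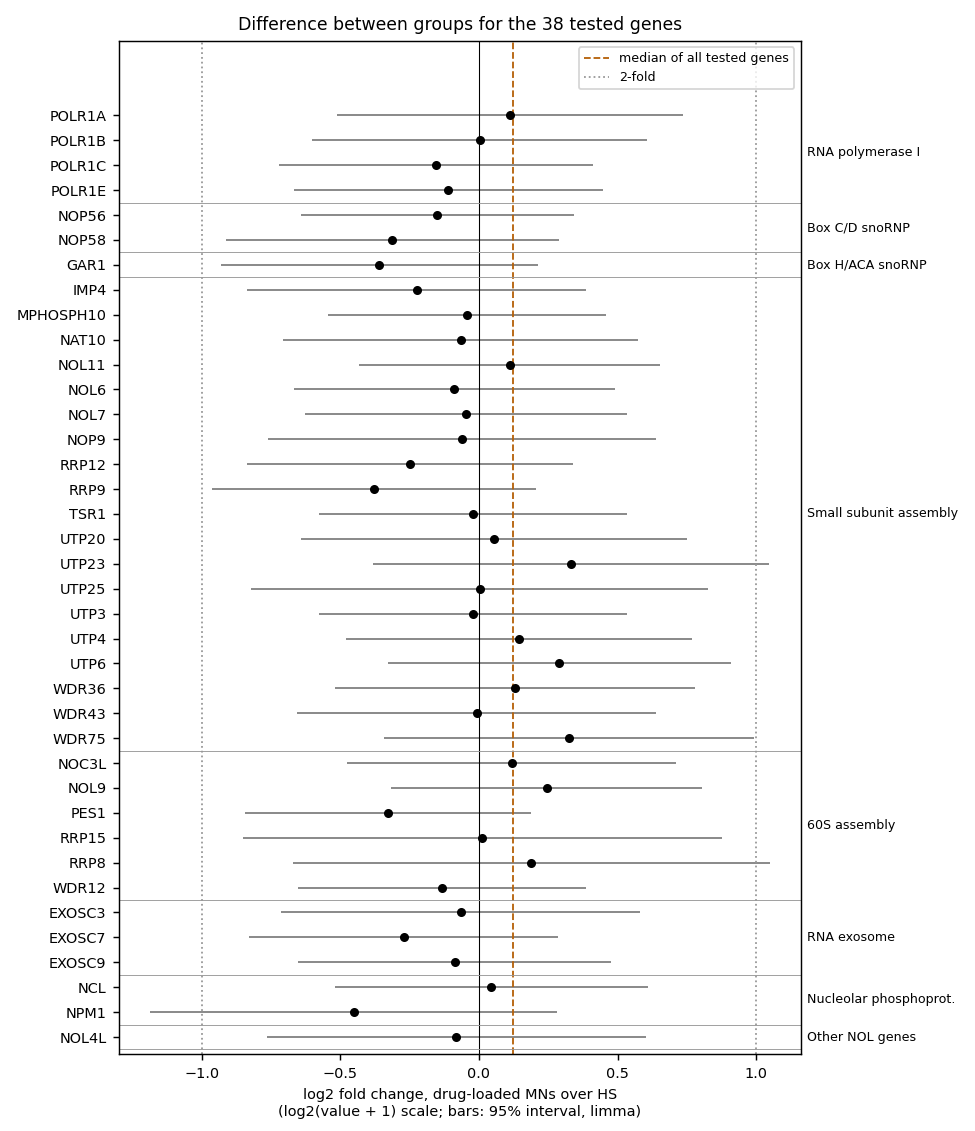
Log2 fold change of drug-loaded MNs over HS for the 38 tested genes on the log2(value + 1) scale, with bars for the 95% interval from limma, a dashed line at the all-gene median of 0.12 and dotted lines at a 2-fold difference. All 38 intervals cross 0, and 31 points lie left of the dashed line.

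The RNA exosome was represented by 3 subunits, and the other subunits were not analysed here. EXOSC3, a cap subunit that binds RNA, had 52.6 and 37.4 units in HS and 49.3 and 36.3 units in drug-loaded MNs. Each group held a higher and a lower library, and the log2 fold change was -0.07 ± 0.28 (SE) with a limma adjusted p of 0.969. EXOSC7, a ring subunit, had 85.0 and 66.9 units in HS and 67.9 and 57.2 units in drug-loaded MNs. HS replicate 1 was the highest library and the groups overlapped narrowly, with a log2 fold change of -0.27 ± 0.24 (SE) and a limma adjusted p of 0.836. EXOSC9, another ring subunit, had 25.0 and 27.9 units in HS and 26.3 and 23.4 units in drug-loaded MNs, with a log2 fold change of -0.09 (adjusted p from limma 0.953.) The 3 log2 fold changes were all below 0 with a median of -0.09, and the groups overlapped in part for each subunit. The median was -0.31 without HS replicate 2, while leaving out replicate 1 or replicate 2 of drug-loaded MNs gave -0.28 or -0.0050, and EXOSC3 turned to 0.17 without HS replicate 1.

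Nucleases, cofactors and adaptors of the exosome and of related RNA decay were taken from a list. None of the 10 measured genes passed an unadjusted p under 0.05 in limma. A log2 fold change above 0 was found in 9 of them, beside 64.6% of all genes, and their median was 0.28 beside 0.12 for all genes. Both treated libraries were above both HS libraries in 5, beside 26.6% of all genes, and below both in 0, beside 11.2%. These were DIS3, the main nuclease of the nuclear exosome, DIS3L, its cytoplasmic counterpart, the helicase MTREX, the deadenylase PARN and TTC37, a scaffold of the Ski complex. DIS3L had 2.69 and 1.80 units in HS and 3.70 and 3.24 units in drug-loaded MNs, with a log2 fold change of 0.47 (adjusted p from limma 0.754.) DIS3L2, a nuclease that works without the exosome ring, had 3.53 and 7.66 units in HS and 9.65 and 7.35 units in drug-loaded MNs. Its log2 fold change was 0.59 with an adjusted p of 0.750, and leaving out 1 library moved it between 0.12 and 1.06. The median of the 10 genes was 0.12 without HS replicate 1 and 0.39 without HS replicate 2, and 0.14 and 0.19 under median ratio scaling and quantile normalization, where 8 of the 10 were above 0.

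**Figure D3:**
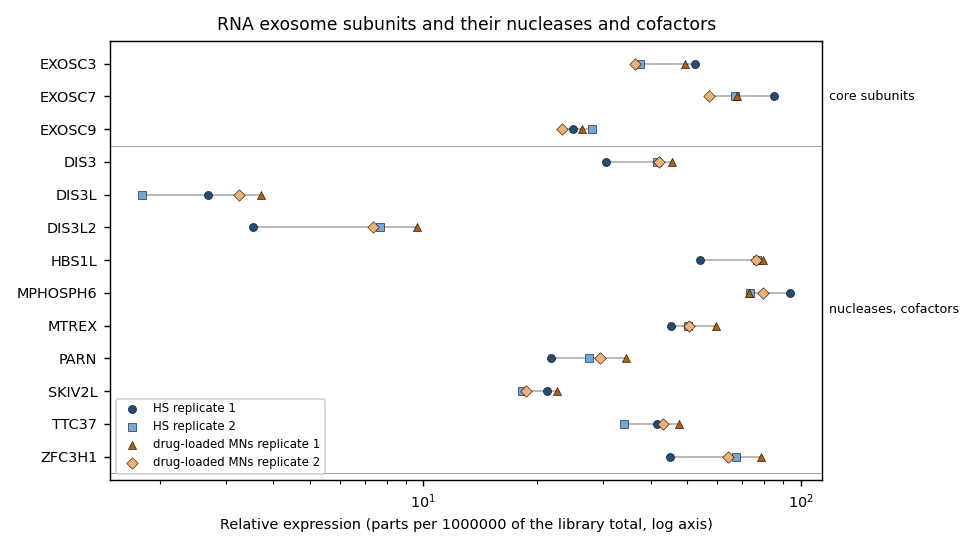
Relative expression of 3 RNA exosome subunits and 10 nucleases and cofactors in each library, in parts per 1000000 of the library total on a log axis; each marker is 1 library and the grey line spans the 4 values. The groups overlap for the 3 subunits, and both drug-loaded MNs libraries lie above both HS libraries for DIS3, DIS3L, MTREX, PARN and TTC37, as they do for 26.6% of all genes; the subunits and cofactors were not tested against each other.

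Nucleolin (NCL) and nucleophosmin (NPM1) are the abundant phosphoproteins of the nucleolus. NCL had 207 and 282 units in HS and 269 and 231 units in drug-loaded MNs. The treated libraries lay between the HS libraries, with a log2 fold change of 0.04 ± 0.24 (SE) and a limma adjusted p of 0.976. NPM1 had 8.65 and 6.34 units in HS and 6.22 and 4.24 units in drug-loaded MNs. Both treated libraries were lower, and the log2 fold change of -0.45 ± 0.31 (SE) was the lowest of the set, with a 95% interval from -1.19 to 0.28 and a limma adjusted p of 0.773. NPM1 is known to have near-identical processed copies in mammals, so its reads may have been split and its level is uncertain.

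NOL4 and NOL4L were taken by their nucleolar names only. NOL4 had 0.375 and 0.308 units in HS and 0.912 and 0.189 units in drug-loaded MNs, under the minimum mean of 1 unit, and was not tested. NOL4L had 4.86 and 3.81 units in HS and 3.71 and 4.35 units in drug-loaded MNs, with overlapping groups, a log2 fold change of -0.08 (adjusted p from limma 0.964.)

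Across the set, the position of the treated libraries relative to the HS libraries was counted. In 1 gene both treated libraries were above both HS libraries, which held for 26.6% of all genes. In 10 genes (26.3%) both were below, against 11.2% of all genes. These were POLR1C, POLR1E, NOP56, GAR1, NOL6, RRP12, RRP9, PES1, WDR12 and NPM1. In 13 genes (34.2%) both treated libraries lay between the HS libraries, against 20.2% of all genes, and in the other 14 the groups overlapped in part. Under median ratio scaling 17 of the 38 genes were below, a larger share than the 20.6% of all genes. Under quantile normalization 18 of the 38 were below, also a larger share than the 20.8% of all genes. The counts changed when 1 library was left out, where fewer values can overlap. Without HS replicate 1, 25 of the 38 genes were below the remaining HS library, a larger share than the 30.0% of all genes. Without HS replicate 2, 17 of the 38 were above, a smaller share than the 54.2% of all genes. In that run 15 were below, a larger share than the 24.1% of all genes. Without drug-loaded MNs replicate 1 or 2, 18 or 11 were below, larger shares than the 25.9% or 18.1% of all genes.

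The HS libraries differed from each other by more than the groups did in most genes. The absolute log2 gap between the HS libraries exceeded the absolute log2 fold change in 30 of the 38 genes (78.9%), and in 61.9% of all genes. A gap between single libraries carries more noise than a difference between means, so the all-gene share is the one to read it against. The median absolute gap was 0.38 in the set and 0.33 over all genes. It was widest, above 0.9 log2 units, in RRP8, RRP15 and UTP25, whose log2 fold changes were 0.19, 0.01 and 0.002. PES1 and RRP9 had narrow HS gaps of 0.01 and 0.07 and larger differences between groups.

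**Figure D4:**
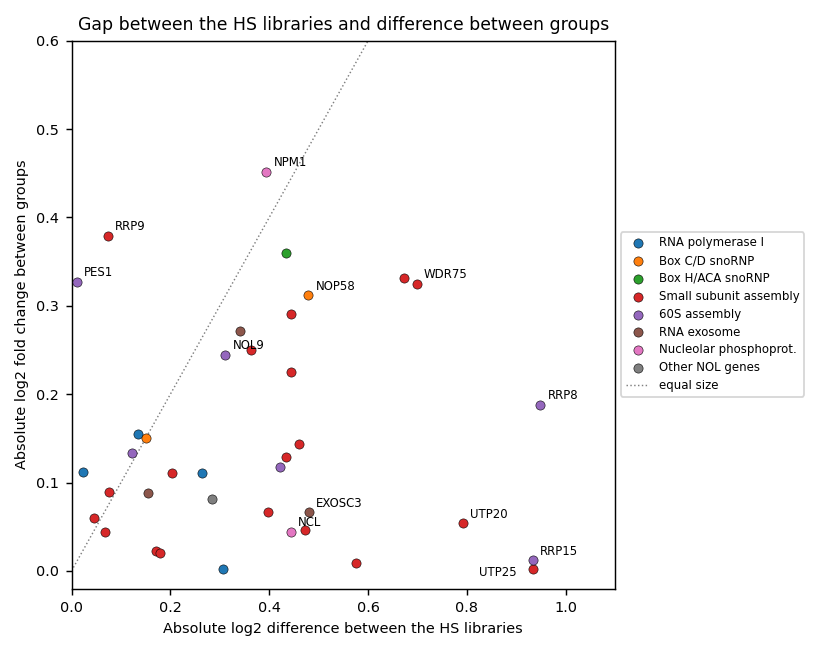
Absolute log2 fold change between groups against the absolute log2 difference between the HS libraries, 1 point per tested gene, coloured by role, with a dotted line where both are equal. Of the 38 points, 30 lie below the line, and RRP8, RRP15 and UTP25 at the far right have wide HS gaps and small group differences.

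The direction of the HS gap differed between roles. HS replicate 2 was above HS replicate 1 in 15 of 19 small subunit genes (78.9%), beside 59.7% of all genes, and the median log2 difference was 0.43 beside 0.12 for all genes. It was also higher in 4 of 6 large subunit genes. NOP56, NOP58, GAR1, EXOSC3 and EXOSC7 were instead higher in HS replicate 1, by 0.15 to 0.48 log2 units. The remaining exosome subunit, EXOSC9, was higher in HS replicate 2 by 0.16. Within the treated group, drug-loaded MNs replicate 1 was above replicate 2 in 30 of the 38 genes (78.9%), beside 64.3% of all genes. The 5 measured dissociation response markers, early genes that respond to tissue handling, were all higher in HS replicate 2, with sums of 13142 and 20232 units in the HS libraries and 12933 and 13713 units in the treated ones, and their part in these gaps was not tested. These are differences between single libraries, without a replicate check.

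Cycling cell markers moved with the libraries as well. The 12 measured markers, each above 0 in all libraries, summed to 483 and 273 units in HS and 739 and 285 units in drug-loaded MNs, so replicate 1 of each group was the higher one. Of the 38 tested members, 11 were higher in replicate 1 of each group (28.9%), a share close to the 27.8% of all genes. They included the 3 snoRNP genes, EXOSC3 and EXOSC7, but not EXOSC9. The part of cycling cells in these values was not tested. The pathway assembles the products of the ribosomal protein genes, of which 22 were tested. They had 9 log2 fold changes above 0 and 13 below, beside 64.6% of all genes above 0. Their median was -0.07, beside 0.12 for all genes. At an unadjusted limma p under 0.05 there were 0, beside 7.26% of all genes higher and 1.39% lower. Both treated libraries were above both HS libraries in 1 of the 22, beside 26.6% of all genes, and below both in 8, beside 11.2%.

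**Figure D5:**
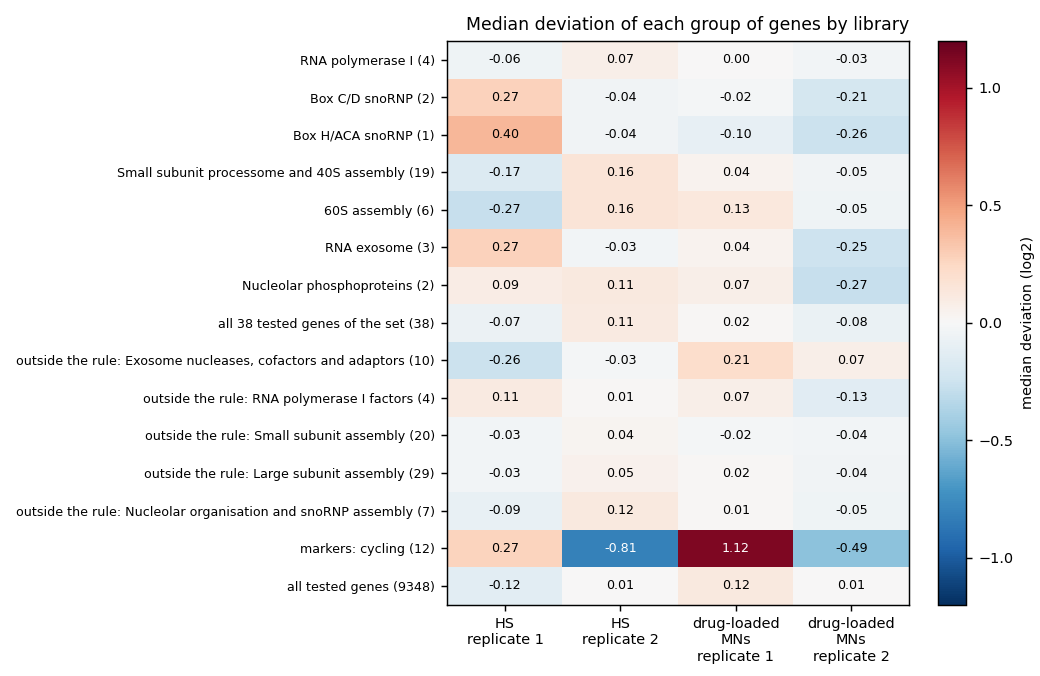
Median log2 deviation of each group of genes from its genes' means over the 4 libraries, by library, with the number of genes in parentheses. Small and large subunit assembly genes of the set are low in HS replicate 1 (-0.17 and -0.27) and higher in HS replicate 2 (0.16 each). The snoRNP groups and the group of 3 exosome subunits have their highest medians in HS replicate 1 (0.27 to 0.40). Of the subunits, EXOSC9 alone is highest in HS replicate 2. Exosome nucleases, cofactors and adaptors are lowest in HS replicate 1 (-0.26) and highest in drug-loaded MNs replicate 1 (0.21). Cycling markers are highest in drug-loaded MNs replicate 1 (1.12).

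Other genes of the pathway, which the name rule did not take, were described from a list of 117 symbols, of which 70 were in the table and all 70 were tested. They had 35 log2 fold changes above 0 and 35 below, beside 64.6% of all genes above 0. Their median was 0.002, beside 0.12 for all genes. Both treated libraries were above both HS libraries in 8 of the 70, beside 26.6% of all genes, and below both in 13, beside 11.2%. None passed the adjusted threshold in limma, and at an unadjusted p under 0.05 there were 0 higher and 1 lower, beside 7.26% and 1.39% of all genes. The median of the 70 genes was 0.06 without HS replicate 2, beside 0.19 for all genes. Without drug-loaded MNs replicate 1 or 2 that median was -0.03 or 0.04, beside 0.06 or 0.18 for all genes. The 1 lower gene was MYC, the transcription factor known to drive ribosome biogenesis, with 389 and 477 units in HS and 255 and 306 units in drug-loaded MNs. Both treated libraries were lower, with a log2 fold change of -0.62 ± 0.23 (SE), an unadjusted p of 0.0283 and an adjusted p of 0.485. The log2 fold change of MYC ran from -0.77 to -0.48 when each library was left out.

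Late factors of the large subunit gave values in both directions. EIF6, which keeps the large subunit from joining the small one too early, had 261 and 209.9 units in HS and 183 and 184 units in drug-loaded MNs, with a log2 fold change of -0.35 (adjusted p from limma 0.747.) XPO1, the export receptor that carries both subunits out of the nucleus, had 97.0 and 126 units in HS and 155 and 131 units in drug-loaded MNs, with a log2 fold change of 0.36 (adjusted p from limma 0.759.) ZNRD1, an older symbol of a small RNA polymerase I subunit, had 182 and 141 units in HS and 134 and 121 units in drug-loaded MNs, with a log2 fold change of -0.33 (adjusted p from limma 0.773.) By role, the medians of the other listed genes were 0.002 for 20 small subunit factors, -0.02 for 29 large subunit factors, -0.12 for 4 RNA polymerase I factors and 0.06 for 7 genes of nucleolar organisation and snoRNP assembly.

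In the rabbit assembly mOryCun1.1 of RefSeq, 7 members overlapped another gene of the table. These pairs were NOC3L with PLCE1, WDR12 with CARF, NOP56 with IDH3B, EXOSC7 with ZDHHC3, MPHOSPH10 with MCEE, NOL7 with RANBP9 and TSR1 with SRR. Whether counting used the strand was not stated, so reads of these members are uncertain. PLCE1 had 9.59 and 14.1 units in HS and 27.7 and 17.8 units in drug-loaded MNs, with a log2 fold change of 0.88, whereas that of NOC3L was 0.12.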

How the data were processed

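Single cells were captured in droplets (10x Genomics). The submitters' processing notes name Cell Ranger 2.1.1, and a mouse build although the gene identifiers are those of rabbit. The deposited values are a normalized signal made by the authors, 1 value per gene and library, named for FPKM but summing to 10000 per library; how cells were combined was not stated. The methods mention removal of a batch effect across samples, without saying whether it reached these values, and if so the differences between libraries were altered by it. 3706 genes had no symbol and could not be matched by name. Values were rescaled to 1000000 per library, the 9348 genes whose mean reached 1 unit were retained, and log2(value + 1), which understates changes of low genes, was fitted with limma 3.58.1 (lmFit, eBayes with trend) in R 4.3.3, 2 libraries against 2, with two-sided p-values adjusted by the Benjamini-Hochberg method and a threshold of 0.05. The smallest two-sided p of an exact permutation test is 0.333 in this design, and none was used. The fit was also run on simulated data whose variances were drawn as the test assumes, so that run cannot check this assumption. Lists of genes were described by counts and medians, with no test of a list.

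Depth was unknown, so no counting interval was computed, and the number of libraries limits the precision. The named members were those past the adjusted threshold, the 10 with the smallest p, the largest and smallest absolute log2 fold change of each role, all exosome subunits and the member under the filter. Of the other listed genes, the 3 with the smallest p in each direction were named. Further genes were named after their values were seen. The members and lists were chosen with earlier results of these data known. Alternatives were 3 other scalings, a pseudocount of 0.1 or 5, a filter at a mean of 5 or none, eBayes with a robust prior or no trend, the replicate number as a block, and leaving out each library. All 39 symbols matched 1 RefSeq gene of mOryCun1.1, used here for neighbouring genes only.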

Additional observations from a re-analysis of the deposited data

How the results depend on the processing

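No member passed the adjusted threshold under any alternative run, although the number of all genes called, 4, was 1 without the variance trend, 0 under median ratio scaling, quantile normalization, a total without abundant genes, a pseudocount of 5 and no filter, and 0 to 75 when each library was left out. The cause was not tested. A replicate block gave 241 calls, none of them a member. Same-numbered libraries deviated together across genes with r = 0.22, which 2 pairs cannot establish as pairing. The median of the members moved to -0.19 with median ratio scaling and to -0.16 with quantile normalization. Members below HS numbered 17 and 18 under these scalings, beside 20.6% and 20.8% of all genes. When each library was left out they numbered 11 to 25, beside 18.1% to 30.0% of all genes. Members above HS then numbered 2 to 17, beside 34.6% to 54.2% of all genes. Members between the HS libraries numbered 18 and 20 without drug-loaded MNs replicate 1 and 2, beside 39.5% and 33.0% of all genes. With 1 library left in a group, fewer values can overlap. Members at an unadjusted limma p under 0.05 numbered 2 of 38 under quantile normalization. In that run 428 of all 9344 tested genes were higher and 297 lower at the same cut.

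Directions of small fold changes turned, with causes not tested. Median ratio scaling gave -0.10 for NCL, -0.13 for POLR1B, -0.13 for RRP15 and -0.13 for UTP25. Quantile normalization gave -0.17 for POLR1B, -0.14 for RRP15 and -0.17 for UTP25. A total without abundant genes gave -0.0061 for POLR1B and -0.0061 for UTP25, and a pseudocount of 5 gave -0.0098 for UTP25. Leaving out each library gave -0.31 to 0.17 for EXOSC3, -0.18 to 0.27 for NCL, -0.22 to 0.060 for NOL4L, -0.15 to 0.16 for POLR1B, -0.45 to 0.48 for RRP15, -0.0054 to 0.67 for UTP23, -0.46 to 0.47 for UTP25 and -0.024 to 0.67 for WDR75. Of 265 values of named members under alternatives, 241 kept their direction and call. In the eBayes, filter and replicate block settings a gene's fold change equals the main one, so its direction could not turn. No member had a call to lose. Among the 19 tested named members, 11 kept their direction under every alternative. With a library left out, the lone one is assumed to vary like the others.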
